A study of Brassica napus with 12 samples.

Results

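The end of chromosome A01 of rapeseed (Brassica napus) and a stretch of chromosome C01 are described here. The first holds every gene that starts at or past position 35000000 of A01, and the second every gene of C01 that starts from 46000000 to 48000000, in the coordinates of the deposited gene table, whose genome build is not given in the sources used here. Together they hold 586 of 100919 genes, 398 at the A01 end (of 4296 on A01) and 188 in the C01 stretch (of 5168 on C01). The stretches were chosen because their genes differed in level between SX3 and ZS11 and between Slike and Zlike, so the members' values in those comparisons are given as a description and without a test.

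RNA was sequenced from whole apical meristems taken where inflorescence primordia give way to floral primordia. The 12 libraries form 4 groups of 3: ZS11 (labelled WT), SX3 (labelled mutant, a natural one), and Zlike and Slike, individuals of a second backcross between them with contrasting inflorescence and plant architecture, which carry the labels WT and mutant in turn. The plants of all 4 groups were untreated and grown at an experimental station, and no age is labelled. Whether each library is a separate plant is not labelled. The p-values therefore reflect no more than library-to-library spread, possibly of a technical kind.

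Rapeseed is an allotetraploid: its A subgenome descends from Brassica rapa and its C subgenome from Brassica oleracea. Most genes therefore exist as an A copy and a C copy, called homoeologs, whose transcripts are alike and together supply one function. A01 and C01 are largely homoeologous chromosomes. In rapeseed, homoeologous chromosomes are known to pair at times in meiosis, after which a stretch of one can be lost, doubled or replaced by the matching stretch of the other. Reads of near-identical copies can be assigned to the wrong one, and values per copy carry that doubt.

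Levels are CPM, read counts scaled to library size by the TMM method, means ± SD over 3 libraries unless said otherwise. Library totals ran from 13445924 to 17778731 counts. Summed levels of meristem marker genes (KNAT1, STM, CLV1 and others, 20 genes, of which 1 or 2 were at 0 in a group) were 463 to 469 CPM in the ZS11 libraries and 380 to 391 CPM in the SX3 libraries. Zlike had 338 to 344 CPM of them and Slike 274 to 282 CPM. Leaf markers (LHCB1.3 and RBCS-1A, 13 genes) summed to 2301 to 2337 CPM in ZS11, where 5 were at 0, and to 685 to 707 CPM in SX3, where 1 was at 0. In Zlike they summed to 1122 to 1186 CPM and in Slike to 1373 to 1388 CPM, with 3 and 2 at 0. Both lists thus differed between the groups compared here, and their part in the results was not tested. In bulk samples, fewer cells of a type and less RNA per cell cannot be told apart.

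Summed over all its members, the A01 end was lower in ZS11 than in SX3. Most of the ZS11 sum (1145 CPM) came from the tip of the chromosome, which went the other way, as given below. Its members summed to 1437 to 1467 CPM in the ZS11 libraries and to 5003 to 5037 CPM in the SX3 libraries. In the Zlike libraries the sum was 1799 to 1835 CPM, and in the Slike libraries 2734 to 2745 CPM. The ranges of the 4 groups did not overlap, and both backcross classes lay between the parents, Zlike near ZS11. Of the 398 members, 228 had 0 counts in all ZS11 libraries, against 121 in SX3, 144 in Zlike and 124 in Slike, and 100 had none in any library.

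The C01 stretch showed the opposite order. Its members summed to 2056 to 2078 CPM in ZS11, 143 to 155 CPM in SX3, 1762 to 1783 CPM in Zlike and 1124 to 1139 CPM in Slike, again without overlap. In SX3, 120 of the 188 members had 0 counts in all 3 libraries, against 73 in ZS11, 73 in Zlike and 69 in Slike.

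In SX3 against ZS11, 198 members of the A01 end passed the filter on low counts, and edgeR called 162 higher and 31 lower in SX3. Of the 86 tested in the C01 stretch, 85 were called lower and 0 higher. Over all genes 69.3% were called, 33.4% higher and 35.9% lower. In Slike against Zlike, 144 of 191 members of the A01 end were called higher and 19 lower, and 72 of 86 of the C01 stretch were called lower and 0 higher, where 27.2% of all genes were called, 13.8% higher and 13.4% lower. Nothing is read from these counts, since the rule used both contrasts, and members near 0 in one group pass the filter only through the group where they are high. At the A01 end the median log2 fold change was 6.16 in SX3 against ZS11 and 1.49 in Slike against Zlike. In the C01 stretch it was -7.20 and -0.68. Fitted values are not bounds where a group is at 0. With group means raised to a floor of 3 counts per library, the medians for SX3 against ZS11 were 4.62 and -4.01, while the median of all tested genes was -0.01.

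Neither limit marked the place where the difference began. Just inside the A01 limit, next to the galactokinase gene GAL1 (0 in ZS11, 5.07 ± 0.23 CPM in SX3), the O-acetyltransferase gene CAS1 was at 4.36, 5.04 and 3.89 CPM in ZS11 and at 40.4, 40.2 and 40.8 CPM in SX3. Just outside it, the kinase gene EDR1 was at 2.96, 4.33 and 3.61 against 25.2, 25.1 and 26.5 CPM. Both sides of this limit were higher in SX3. From 34.5 to 35 Mb, 17 of 32 genes with a mean of 1 CPM or more were at least 4-fold higher in SX3. Just inside the first C01 limit, the cysteine proteinase gene RD21A was at 43.6 ± 1.32 CPM in ZS11 and 0.40 ± 0.06 in SX3, and just outside it the homeobox gene HAT3.1 was at 10.1 ± 1.48 and 1.18 ± 0.24. From 45.5 to 46 Mb of C01, 22 of 24 such genes had SX3 levels at least 4-fold below ZS11. Just past the second C01 limit a gene matched to Pop3 (BnaC01G0415000ZS) was at 6.51 ± 0.17 CPM in ZS11 and at 0 in SX3. From 48.5 to 49 Mb none of 14 genes reached 4-fold.

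Along the A01 end the difference was not uniform. The 182 members with a mean of 1 CPM or more fell into 4 blocks, whose edges were drawn after the values were seen. From 35009833 to 35355761 all 17 such genes were higher in SX3, and the block summed to 22.1 ± 0.80 CPM in ZS11 and 485 ± 5.94 in SX3. From 35358440 to 35572316, 7 genes summed to 167 ± 2.01 and 232 ± 7.94 CPM and had a median log2 ratio of 0.01. From 35600245 to 37367025 all 126 genes were higher in SX3, with sums of 112 ± 3.06 and 3634 ± 7.09 CPM and a median log2 ratio of 5.36 over the floor. At the tip, from 37512533 to 37897693, 29 of 32 genes were lower in SX3, and the sum was 1145 ± 14.8 CPM in ZS11 and 620 ± 6.51 in SX3. The chromosome end thus held a long stretch that was almost silent in ZS11, an inner block with levels in all groups and a tip of opposite direction.

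**Figure D1:**
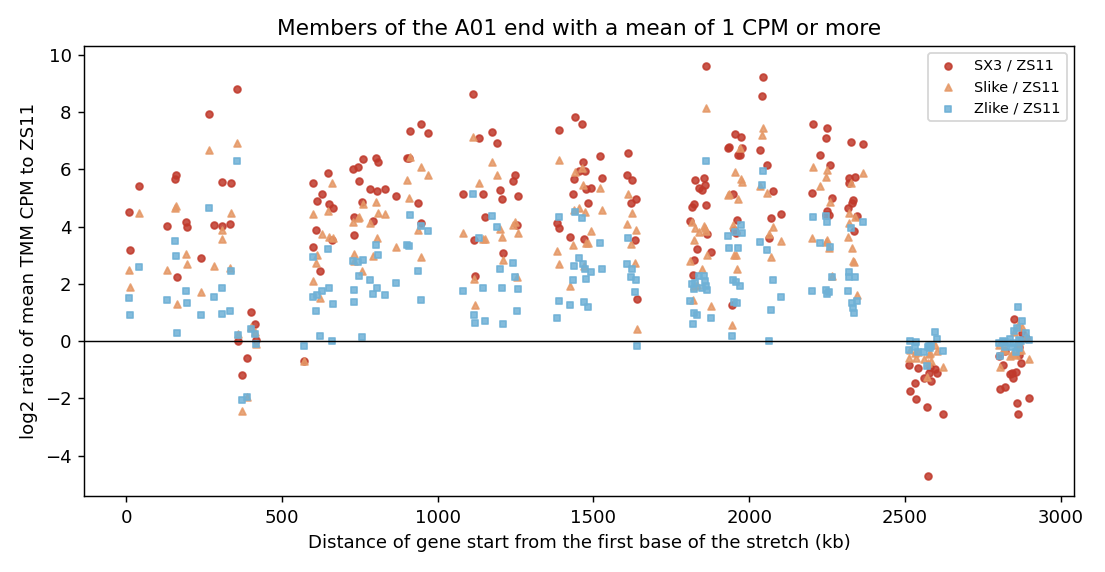
Log2 ratio of the mean level (TMM CPM, groups raised to the floor) of SX3, Slike and Zlike to ZS11 for the 182 members of the A01 end with a mean of 1 CPM or more, by distance of the gene start from the first base of the stretch in kb. All 126 genes of the long block lie above 0 in SX3, and 29 of 32 genes of the tip lie below it.

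Genes of the long block encode several proteins of the small ribosomal subunit, RPS24B and RPS16C among them, and 3 others are given here. RPS3A (BnaA01G0401000ZS, A01 35744630 to 35747314) was at 4.82, 4.53 and 4.24 CPM in the ZS11 libraries and at 304, 308 and 303 CPM in the SX3 libraries. The Zlike libraries held 32.0, 30.1 and 29.5 CPM and the Slike libraries 90.3, 88.1 and 88.5 CPM. The 4 groups did not overlap, with Zlike and Slike between the parents. RPS7 (BnaA01G0414600ZS, 36859919 to 36860721) was at 0.15 ± 0.08 CPM in ZS11, 172 ± 3.96 in SX3, 17.3 ± 0.80 in Zlike and 63.2 ± 2.47 in Slike. RPS19A (BnaA01G0417500ZS, 37045431 to 37046680) was at 0.09 ± 0.04, 134 ± 1.88, 13.5 ± 0.66 and 38.4 ± 3.71 CPM. All 3 genes had the same order of groups. All 8 translation genes of the A01 end with a mean of 1 CPM or more were called higher in SX3. Of all tested members of the A01 end 162 of 198 were called higher, and of all genes 33.4%, so nothing is read from this count. Among the 8 was RPL22B of the inner block, which was at 115 ± 4.44 CPM in ZS11 and 174 ± 6.07 in SX3.

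GAPC (BnaA01G0404200ZS, 35946467 to 35948831), a cytosolic glyceraldehyde-3-phosphate dehydrogenase of glycolysis, was at 18.1, 16.0 and 17.2 CPM in ZS11 and at 301, 298 and 288 CPM in SX3. It was at 47.1, 47.1 and 44.2 CPM in Zlike and at 132, 130 and 130 CPM in Slike. HDA19 (BnaA01G0402200ZS, 35793572 to 35797285), a histone deacetylase that acts in transcriptional repressor complexes, was at 11.6 ± 0.63, 213 ± 2.29, 36.2 ± 2.01 and 92.2 ± 6.31 CPM in ZS11, SX3, Zlike and Slike. The order of the groups was the same for GAPC and HDA19, with no overlap.

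Regulators of the shoot apex lie in the same block. RPK2 (BnaA01G0417100ZS, 37033666 to 37039219), a receptor-like kinase that in Arabidopsis takes part in CLAVATA signalling in the meristem, was at 0.06, 0.06 and 0 CPM in ZS11 and at 23.6, 23.4 and 21.5 CPM in SX3. Zlike had 1.73, 3.06 and 2.51 CPM and Slike 10.2, 9.45 and 8.84 CPM. SEP2 (BnaA01G0416700ZS, 36969127 to 36970987), a MADS-box partner of the floral organ regulators, had no count in the 3 ZS11 libraries and stood at 20.4, 22.2 and 18.0 CPM in SX3. Zlike held 0.84 ± 0.23 CPM, and the Slike libraries 22.8, 22.7 and 25.4 CPM. Slike therefore reached the SX3 level for SEP2 but not for RPK2, GAPC or RPS3A.

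At the tip, RER3 (BnaA01G0424000ZS, 37572371 to 37573399), a protein of the RETICULATA-related family, was at 179, 181 and 174 CPM in ZS11 and at 38.7, 32.7 and 37.6 CPM in SX3. It was at 97.7, 98.7 and 99.7 CPM in Zlike and 71.0, 76.3 and 75.5 CPM in Slike, with no overlap between groups. A subunit gene of the mitochondrial NADH dehydrogenase (At3g08610, BnaA01G0424100ZS, 37574903 to 37575223) was at 45.4 ± 1.46 CPM in ZS11, 1.75 ± 0.74 in SX3, 39.9 ± 1.90 in Zlike and 26.9 ± 1.11 in Slike. A gene matched to the exosome subunit RRP42 (BnaA01G0427900ZS, 37861173 to 37862612) was at 29.1 ± 1.61, 6.48 ± 0.17, 40.5 ± 4.06 and 26.6 ± 2.78 CPM. The tip also held exceptions, such as a gene matched to a heat shock protein 90 (BnaA01G0427700ZS) at 78.1 ± 1.89 CPM in ZS11 and 133 ± 2.18 in SX3.

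In the C01 stretch the difference ran through the whole length. ACT2 (BnaC01G0401600ZS, C01 46590218 to 46592480), a vegetative actin, was at 270, 273 and 273 CPM in ZS11 and at 9.26, 8.74 and 8.71 CPM in SX3. The Zlike libraries held 192, 184 and 186 CPM and the Slike libraries 118, 118 and 120 CPM. ASPG1 (BnaC01G0404300ZS, 46837029 to 46839088), an aspartic protease known from guard cells of Arabidopsis, was at 156 ± 5.75 CPM in ZS11 and had no count in SX3, at least 759-fold lower against a floor of 3 counts per library. RLK902 (BnaC01G0409800ZS, 47347025 to 47349614), matched to a protein named a probable inactive receptor kinase, was at 111 ± 4.24 CPM in ZS11. It likewise had no count in SX3, at least 540-fold lower. ASPG1 was at 104 ± 1.31 CPM in Zlike and 67.6 ± 2.34 in Slike, and RLK902 at 93.1 ± 5.79 and 55.9 ± 2.85 CPM. ACT2 thus kept a low level in SX3 where ASPG1 and RLK902 had none, and for these 3 genes both backcross classes lay between the parents.

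A gene matched to an HMG-Y-related chromatin protein (BnaC01G0407900ZS, 47204034 to 47206596) was at 131, 133 and 131 CPM in ZS11 and had 1 count over the 3 SX3 libraries. It was at 164 ± 1.60 CPM in Zlike and 103 ± 1.98 in Slike. The ribosomal protein gene RPL30A (BnaC01G0402500ZS, 46662007 to 46662446) was at 86.5 ± 1.73 CPM in ZS11, 0.02 ± 0.03 in SX3, 107 ± 4.93 in Zlike and 66.8 ± 2.49 in Slike. RACK1C (BnaC01G0407400ZS, 47160928 to 47162103), a ribosome-associated scaffold protein, was at 114 ± 2.31, 10.3 ± 0.45, 127 ± 4.94 and 82.5 ± 2.14 CPM. For these 3 genes Zlike stood above ZS11. VRN1 (BnaC01G0399600ZS, 46370583 to 46373570), a B3-domain protein that in Arabidopsis keeps FLC repressed after vernalization, was at 24.5 ± 0.41, 1.23 ± 0.50, 23.1 ± 0.36 and 14.9 ± 1.08 CPM. CCT4 (BnaC01G0406800ZS, 47078237 to 47080126), a subunit of the cytosolic chaperonin that folds actin and tubulin, was at 56.9 ± 1.31, 0.09 ± 0.08, 53.5 ± 2.05 and 32.6 ± 1.89 CPM. BGLU44, a beta-glucosidase, was at 73.6 ± 4.08 CPM in SX3 against 284 ± 0.85 in ZS11.

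**Figure D2:**
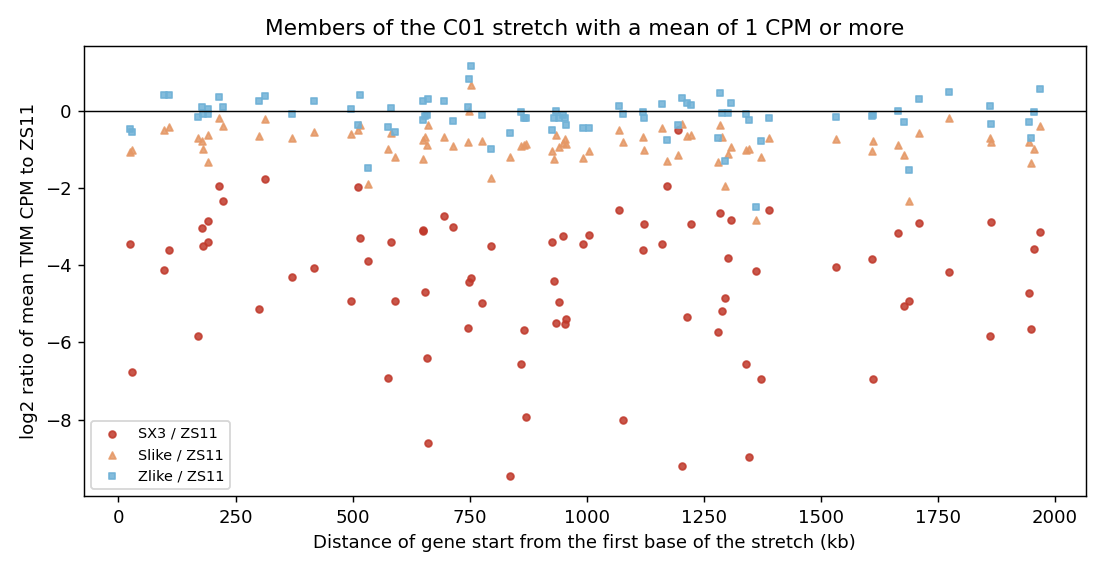
Log2 ratio of the mean level (TMM CPM, groups raised to the floor) of SX3, Slike and Zlike to ZS11 for the 82 members of the C01 stretch with a mean of 1 CPM or more, by distance of the gene start from position 46000000 in kb. SX3 lies below 0 over the whole stretch, Slike mostly a little below 0 and Zlike on both sides of it.

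The members belong to many functions, and their lists repeat the choice of the stretches. Over all genes 33.4% were called higher in SX3 and 35.9% lower, and over the tested members of the A01 end 162 of 198 were higher. By the lists of keywords in the protein names, counted over members with a mean of 1 CPM or more, 9 of 11 kinases and receptors of the A01 end were called higher in SX3 and 2 lower. Of the chloroplast and photosynthesis genes 14 of 16 were higher and 2 lower, all 7 mitochondrial genes were higher, and all 3 pentatricopeptide genes were higher. Apart from translation, given above, the other A01 lists held 1 to 5 such genes. Each list of the C01 stretch with such a member was lower in SX3 throughout, for instance 7 of 7 kinases and receptors, 7 of 7 chloroplast genes, 5 of 5 mitochondrial genes and 4 of 4 genes of splicing and RNA. Among all members the median floored log2 ratio was 4.62 and -4.01, as given above, and the lists had medians of the same sign.

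Zlike against ZS11 and Slike against SX3 were not the contrasts that chose the members, but they use the same libraries, so their values too are a description without a test. Members at 0 in one group entered the fit on all 12 libraries through the groups where they are high. In Zlike against ZS11, edgeR called 153 of 203 members of the A01 end higher in Zlike and 13 lower, with a median log2 fold change of 2.91, or 1.64 over the floor; over all genes 46% were called, 23.1% higher and 22.9% lower. Of these members 137 were called and at least 2-fold higher, against 4.83% of all genes. RPS7 had 7 counts over the 3 ZS11 libraries and 764 over the 3 Zlike libraries. RPS3A was 6.74-fold higher in Zlike than in ZS11, and SEP2 at least 4.35-fold.

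In the inner block of A01, Zlike differed from ZS11 the other way for 2 genes. NFYA2 (BnaA01G0396200ZS, 35373200 to 35374699), a subunit of the CCAAT-binding factor NF-Y, was at 4.76, 3.36 and 4.60 CPM in ZS11 and at 0.97, 1.15 and 0.93 CPM in Zlike. A protein phosphatase 2C gene (At3g05640, BnaA01G0396400ZS) was at 8.14 ± 0.88 CPM in ZS11 and 2.09 ± 0.26 in Zlike. Both were also low in Slike, at 0.79 ± 0.31 and 2.08 ± 0.51 CPM, and below SX3 in both backcross classes.

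Of 88 tested members of the C01 stretch, 9 were called higher in Zlike than in ZS11 and 22 lower (35.2%), where 46% of all genes were called, and the median log2 fold change was -0.10. Among the named genes the lowest ratios of Zlike to ZS11 were those of GLN1-3, a cytosolic glutamine synthetase (BnaC01G0409900ZS), PLT5, a polyol transporter (BnaC01G0401100ZS), and HYH, a bZIP homolog of the light-signalling factor HY5 (BnaC01G0412000ZS). GLN1-3 was at 9.52, 8.60 and 9.69 CPM in ZS11 and at 0.90, 2.42 and 1.65 CPM in Zlike. PLT5 was at 10.7 ± 0.69 and 3.85 ± 0.72 CPM, and HYH at 6.79 ± 0.64 and 2.35 ± 0.25 CPM. The RNA helicase gene RH51 (BnaC01G0403400ZS) was higher in Zlike, at 9.99 ± 0.57 against 4.51 ± 0.23 CPM. TCP18, chosen after its values were seen (BnaC01G0404000ZS, 46796515 to 46798601), whose Arabidopsis counterpart BRC1 represses the outgrowth of axillary buds, was at 2.56, 2.78 and 2.26 CPM in ZS11, at 0 in SX3, at 1.24, 0.96 and 1.65 CPM in Zlike and at 0.95, 0.70 and 0.61 CPM in Slike. No Zlike library of TCP18 reached the lowest ZS11 library.

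Slike differed from SX3 in almost the reverse direction. At the A01 end 156 of 203 members were lower in Slike and 30 higher, with a median log2 fold change of -1.17. In the C01 stretch 86 of 88 were higher and 1 lower, with a median of 5.76, or 2.97 over the floor. Over all genes 53.7% were called, 29.8% higher and 23.9% lower. As above, nothing is read from these counts. ACT2 was 13.3-fold higher in Slike than in SX3, and ASPG1 at least 329-fold. At the A01 end the log2 fold change was -1.78 for RPS3A and -1.80 for RPS19A. The tip went the other way: At3g08610 was 15.4-fold and RER3 2.04-fold higher in Slike.

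On a scale where ZS11 is 0% and SX3 100%, the backcross classes took similar places across many members. The scale took 141 A01-end genes with a mean of 1 CPM or more and at least 4-fold higher in SX3. They lay at a median of 11.2% in Zlike (interquartile range 9.39 to 12.8%) and at 38.6% in Slike (33.5 to 46.5%). The 6 genes of the tip at least 4-fold lower in SX3 were left out. The 77 genes of the C01 stretch at least 4-fold lower in SX3 lay at 6.53% in Zlike (-10.7 to 18.3%). In Slike they lay at 44.1% (36.7 to 52.2%). In the C01 stretch 28 genes of Zlike lay beyond ZS11, below 0%. At the A01 end 3 genes had a Slike mean above that of SX3, by a small margin for 2 of them. ACL1.C1 (BnaA01G0399900ZS), an acyl carrier protein of fatty acid synthesis, had no count in ZS11 and was at 2.67, 2.60 and 2.43 CPM in SX3, at 0.02 ± 0.04 in Zlike and at 10.5, 9.66 and 10.2 CPM in Slike, or 395% on this scale. SEP2 lay at 117%, with a log2 fold change of 0.23 in Slike against SX3. MYB39 (BnaA01G0418000ZS), a MYB transcription factor, lay at 108%, with means of 2.72 CPM in SX3 and 2.94 in Slike. In the C01 stretch GLN1-3 lay at 87.1% in Zlike and 91.1% in Slike, close to SX3 in both classes. Anther markers (AMS, DYT1 and MYB35, 11 genes) summed to 30.5 to 33.0 CPM in Slike and to no more than 1.68 CPM in any other library, and floral markers (LFY and SEP1, 8 genes) to 108 to 120 CPM in Slike, 88.8 to 92.1 in SX3, 47.8 to 48.7 in Zlike and 30.6 to 33.1 in ZS11. Their part in the Slike levels of SEP2, ACL1.C1 and MYB39 was not tested.

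**Figure D3:**
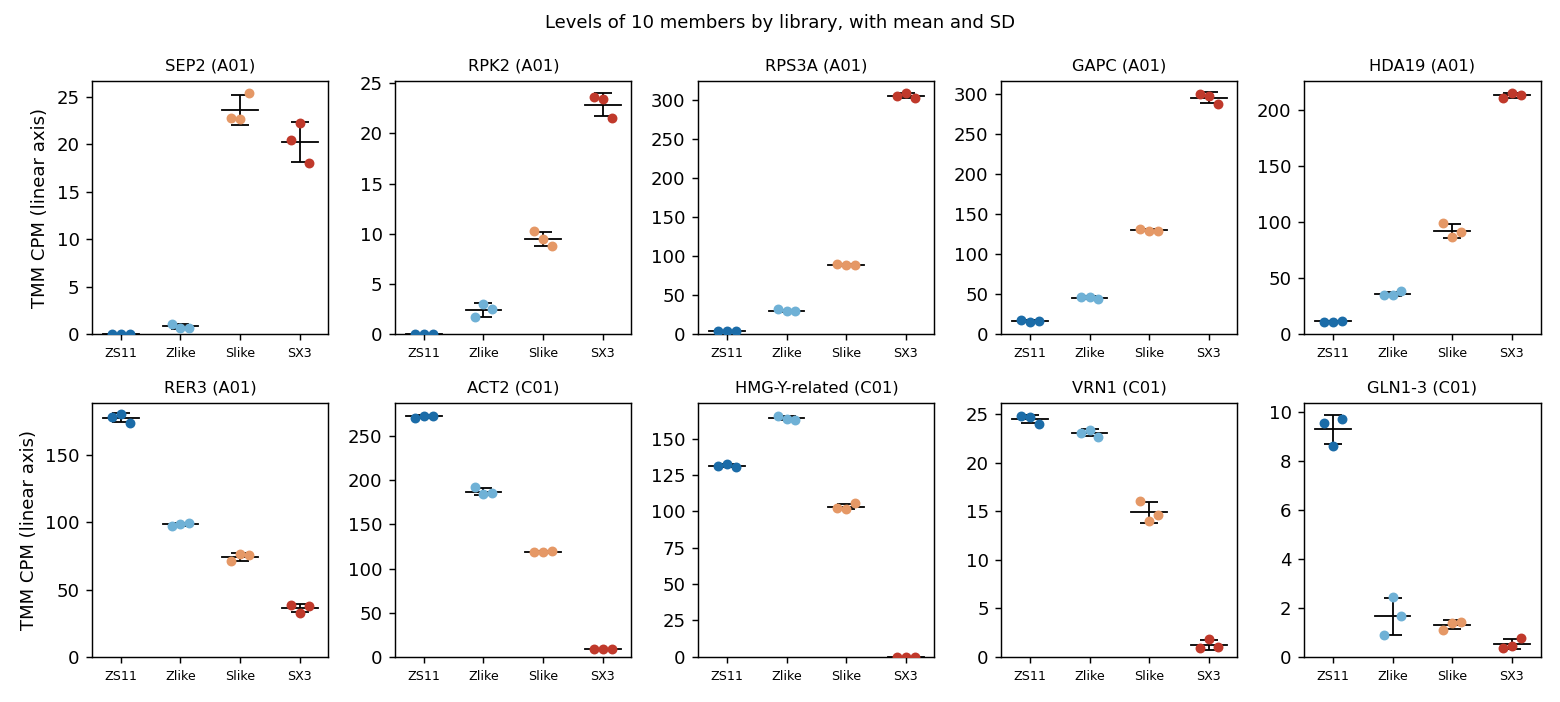
Level in TMM CPM (linear axes that start at 0) of 10 members in each of the 12 libraries, with the mean and SD of each group. RPK2, RPS3A, GAPC and HDA19 increase from ZS11 over Zlike and Slike to SX3, SEP2 is as high in Slike as in SX3, and GLN1-3 is low in all groups but ZS11.

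The label under which both stretches were paired, that the C01 stretch matches the A01 end, went against the gene content. Only 1 protein name was held by exactly 1 gene of each stretch, that of NAC100 (BnaA01G0404700ZS and BnaC01G0404900ZS), with 7 and 0 counts over all 12 libraries. With names held by exactly 1 gene of the whole of A01 and 1 of the whole of C01 there were 222 pairs. Of these, 152 had their A01 copy at the A01 end, and 142 of the C01 copies lay at or past 55 Mb of C01. The other 70 had their C01 copy in the C01 stretch, and all 70 A01 copies lay from 29 to 31 Mb of A01. The first block of the A01 end held 22 of the 152 pairs and the long block 123. The inner block held 2 and the tip 5, with 0 and 1 of their C01 copies at or past 55 Mb. Values of the A01-end pairs therefore describe the first and long blocks, and hardly the inner block or the tip. The partners of the first and long blocks and of the C01 stretch mostly lie elsewhere on the homoeologous chromosome. The following values use the 222 pairs.

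Most of the copies outside the stretches differed between SX3 and ZS11 in the opposite direction to their partners. Of 107 tested C01 partners of the A01 end, 91 were called lower in SX3 than in ZS11 and 6 higher, with a median log2 fold change of -1.33, where 33.4% of all genes were called higher and 35.9% lower. Of 54 tested A01 partners of the C01 stretch, 46 were called higher and 2 lower (median 0.94). Their members had been chosen on this contrast, so both counts are a description. In Slike against SX3, 87 of 109 C01 partners of the A01 end were called higher and 5 lower (median 0.87), and 38 of 55 A01 partners of the C01 stretch lower and 2 higher (median -0.51), where 29.8% of all genes were higher and 23.9% lower. In Zlike against ZS11 the C01 partners had 21 of 109 higher and 51 lower, and the A01 partners 16 of 55 higher and 11 lower, where 23.1% of all genes were higher and 22.9% lower. The A01 partners were thus called about as often as all genes in that comparison.

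Summed over both copies, the pairs reached nearly the same total in each group on the CPM scale, but not for the C01 stretch on the FPKM scale. The 108 pairs of the A01 end with a mean sum of 1 CPM or more summed to 4114 to 4145 CPM in ZS11, 4022 to 4044 in SX3, 3920 to 3925 in Zlike and 3958 to 4022 in Slike. The A01 copies made up 2.78 ± 0.01% of that sum in ZS11, 63.8 ± 0.27% in SX3, 9.69 ± 0.16% in Zlike and 27.2 ± 0.41% in Slike. The 55 pairs of the C01 stretch summed to 2489 to 2513, 2512 to 2557, 2432 to 2437 and 2412 to 2433 CPM in the same order. Their A01 copies made up 41.0 ± 0.14%, 98.3 ± 0.01%, 46.1 ± 0.26% and 65.8 ± 0.29%. The copies of a pair had nearly the same deposited length (median ratio of A01 to C01 of 1, interquartile range 0.987 to 1.02 at the A01 end), and with the deposited FPKM values, which are per length, the A01 share of the A01-end pairs was 2.31 ± 0.04% in ZS11 and 66.3 ± 0.37% in SX3. The FPKM of the A01-end pairs summed to 3605 to 3646 in ZS11 and 3480 to 3486 in SX3. The C01-stretch pairs summed to 2133 to 2142 FPKM in ZS11, 2631 to 2701 in SX3, 2312 to 2322 in Zlike and 2294 to 2316 in Slike. On the FPKM scale their total was therefore higher in SX3 than in every other group, without overlap. Most of the rise from ZS11 to SX3 lay in 1 short pair, RPL30A (339 bases per copy). Its A01 copy was at 141 FPKM in ZS11 and 873 in SX3, and its C01 copy at 247 and 0.06.

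**Figure D4:**
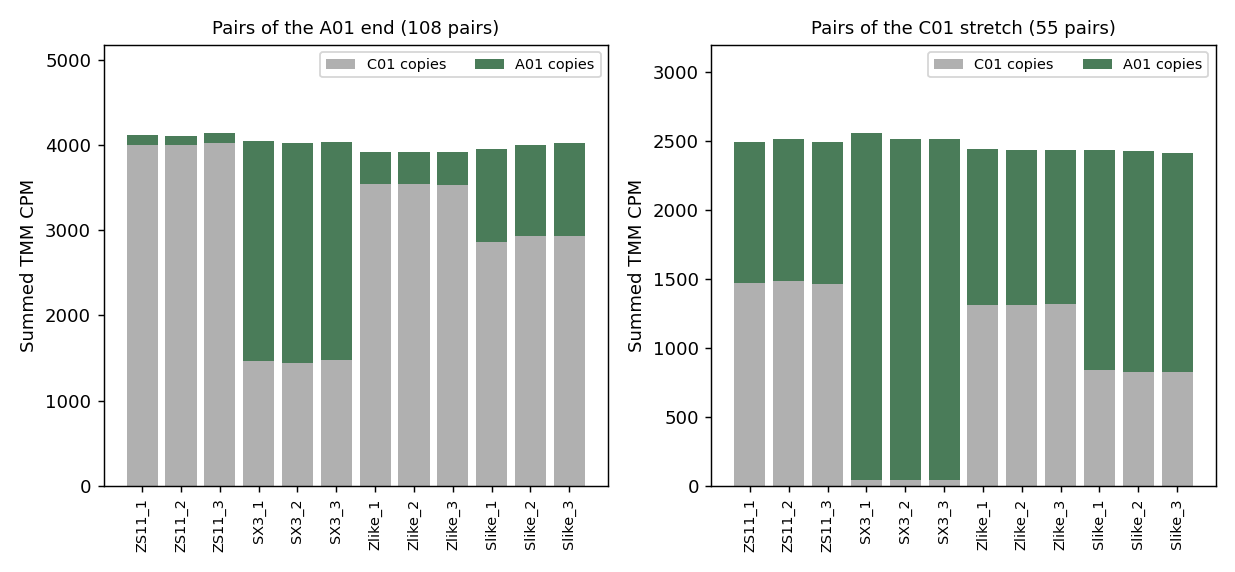
Summed TMM CPM of the C01 copies (grey) and A01 copies (green) in each library, for the 108 pairs of the A01 end and the 55 pairs of the C01 stretch; bars start at 0. The bar heights are nearly alike within a panel while the green part is smallest in ZS11, larger in Zlike and Slike and largest in SX3.

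The order of the shares held in most single pairs. In 102 of the 108 pairs of the A01 end, the A01 share was above every ZS11 library in every SX3 library, and in 95 it was higher in every Slike than in every Zlike library. In 99 pairs the mean share increased from ZS11 over Zlike and Slike to SX3. In the C01 stretch these counts were 52, 49 and 40 of 55. A copy of each pair lies in a stretch chosen on SX3 against ZS11 and Slike against Zlike. The counts are therefore a description, and no share over other pairs is given beside them. In GAPC the C01 copy (BnaC01G0511300ZS, C01 57505279 to 57507569) was at 423, 433 and 442 CPM in ZS11 and 109, 113 and 116 CPM in SX3, so that the pair summed to 450 and 408 CPM. Per length, the A01 copy of GAPC was at 13.0 ± 0.83 FPKM and the C01 copy at 332 ± 7.27 FPKM in ZS11, and at 230 ± 5.09 and 88.5 ± 2.59 FPKM in SX3.

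**Figure D5:**
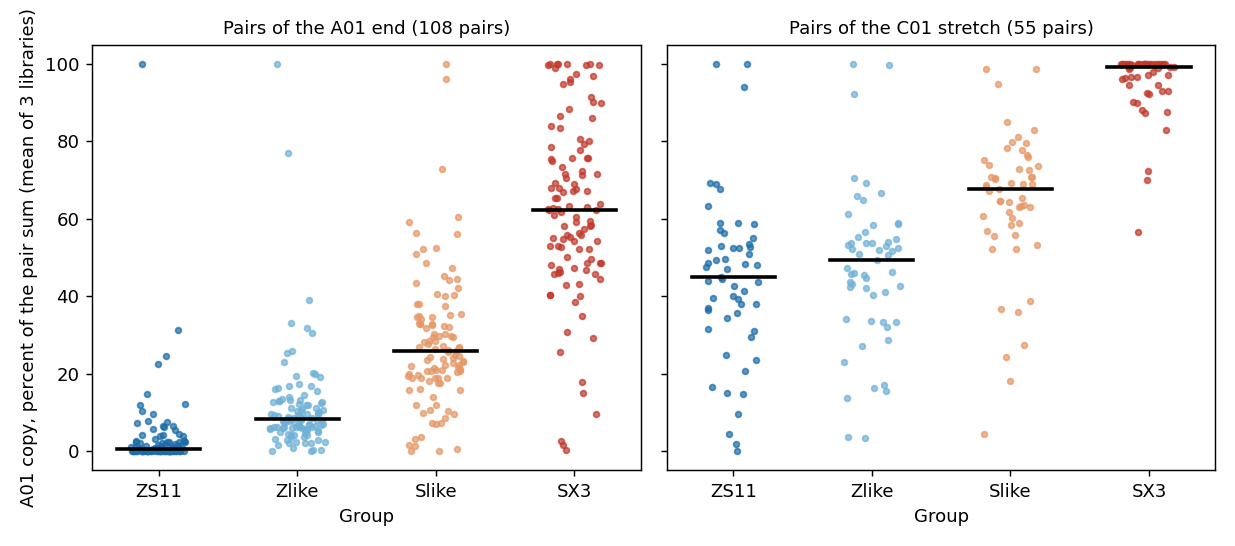
Share of the A01 copy in the summed TMM CPM of each pair, in percent, as the mean of 3 libraries; each point is 1 pair, spread sideways at random, and each line is the median pair. The median pair moves up from ZS11 to Zlike, Slike and SX3 in both panels, and the SX3 points of the C01 stretch crowd near 100%.

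Single pair sums were not level. With the counts of both copies added before the test, 47 of 112 pair sums of the A01 end were called higher in SX3 and 47 lower, and 18 and 26 of 56 in the C01 stretch, where 69.2% of all rows of that fit were called. Of the A01-end pair sums 29.5% were called and at least 2-fold apart, against 26% of all rows. The RPS7 pair summed to 161 CPM in ZS11, 181 in SX3, 178 in Zlike and 180 in Slike, and the VRN1 pair to 42.8, 42.9, 43.9 and 42.1 CPM. The SEP2 pair departed furthest from this among the pairs named here, at 2.49, 43.2, 14.9 and 53.4 CPM. Its C01 copy (BnaC01G0498700ZS, C01 56742758 to 56745207) was at 2.85, 2.59 and 2.05 CPM in ZS11 and at 24.8, 22.3 and 21.8 CPM in SX3. The Zlike libraries held 13.2, 15.5 and 13.6 CPM of it, and the Slike libraries 27.1, 31.9 and 30.3 CPM. For SEP2, therefore, the copy outside the A01 end differed in the same direction as the copy within it. The RPK2 pair summed to 36.3, 53.3, 44.2 and 50.4 CPM, and the ACT2 pair, whose A01 copy (BnaA01G0324400ZS) was at 28.4 ± 1.36 CPM in ZS11 and 112 ± 2.32 in SX3, to 301, 120, 221 and 186 CPM.

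In Slike against Zlike, 21 of 110 pair sums of the A01 end were called higher and 20 lower, and 8 and 8 of 56 in the C01 stretch, where 26.8% of all rows were called. In Zlike against ZS11, 33 of 114 and 14 of 57 pair sums were higher and 41 and 18 lower, against 45.9% of all rows called. In Slike against SX3, 35 and 20 were higher and 35 and 17 lower, against 53.4%. The median log2 change of the A01-end pair sums was within 0.1 of 0 in all 4 comparisons. The log2 fold change of the SEP2 pair was 2.57 in Zlike against ZS11 and 0.31 in Slike against SX3.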

How the data were processed

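Groups were taken from the sample titles and columns matched by title. The authors deposited a whole-number read count per gene, not normalized, and FPKM values computed from it, per the file headers. FPKM recomputed from the deposited count and length differed by at most a relative 8.44e-15. The submitters' processing notes name fastp, HISAT2 and featureCounts. How strand and multiply matching reads were handled is not given in the sources used here, nor is any tool version. Gene IDs end in ZS; whether reads of SX3 were lost against a ZS11-type reference was not tested.

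Counts were tested with edgeR 4.0.16 (R 4.3.3): filterByExpr, TMM, quasi-likelihood test, two-sided, Benjamini-Hochberg adjustment over all genes kept, called at 0.05. SX3 with ZS11 and Slike with Zlike were fitted on their own 6 libraries, and the other 2 comparisons on all 12. All 4 use libraries on which the members were chosen, so calls of members are given as a description. The self-test on simulated counts was run on both 6-library fits. It used a low simulated spread between libraries, and its pass mark was lowered after a class of changed genes fell short of full recovery. Nothing is read from it. Alternatives included DESeq2 1.42.0, other scalings, no filter, moved limits, leaving out each library and a replicate block. Replicates of a group differed by more than sampling noise (mean chi-square per gene, with an expectation of 1, 1.34 to 1.47).

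Members, lists and named genes were chosen with earlier results of these data known. Named were the highest pairs and genes, the genes of opposite sign, genes at the limits, the genes with the smallest p in the 2 comparisons on 12 libraries, the highest genes per function list, and SEP2, RPK2, RPS3A, HDA19 and GAPC. ACL1.C1, MYB39, TCP18 and some pairs were chosen after their values were seen. SID2 lies outside both stretches. Some keywords of the function lists were corrected after wrong matches were seen. Gene names are best protein matches. Pairing through whole chromosomes was planned as an alternative; tests of partners and pair sums were added after seeing the data. Levels below 3 counts per library are at the floor (0.174 to 0.222 CPM), which covers counting error only.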

Additional observations from a re-analysis of the deposited data

How the results depend on the processing

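No result changed direction under the alternatives run. The SEP2 difference of Slike against SX3 was weaker with DESeq2, at a log2 fold change of 0.21. It was 0.18 without Slike replicate 3 and 0.15 without SX3 replicate 3. Scaling by upper quartile gave medians of 6.21 and -7.15 for SX3 against ZS11 (A01 end, C01 stretch), 2.94 and -0.069 for Zlike against ZS11, and -1.20 at the A01 end for Slike against SX3 (-1.19 with DESeq2 size factors). Without a filter on low counts, medians were 4.83 and -5.69 for SX3 against ZS11, 1.89 for Zlike against ZS11 at the A01 end, and -1.13 and 4.42 for Slike against SX3; 3 C01 members were then called higher in SX3 than in ZS11, and 3 lower in Slike than in SX3. With limits moved inwards by 500000 bases, the calls in the C01 stretch were 54 lower in SX3, 42 lower in Slike than Zlike and 54 higher in Slike than SX3, over fewer genes. DESeq2 called 9 pair sums of the C01 stretch in Slike against Zlike, against 16 in edgeR; the cause was not tested. The planned definition of a pair, 1 gene per stretch, gave 1 pair, whole chromosomes 222. The A01 share of the A01-end pairs was 2.49% in ZS11 and 9.47% in Zlike for pairs with collinear partners alone. With deposited FPKM it was 2.31%, 66.3% and 9.23% in ZS11, SX3 and Zlike, and in C01-stretch pairs 41.9%, 98.8% and 46.4%. With sums of 5 CPM or more the C01-stretch shares were 41.2% and 98.3% in ZS11 and SX3; the single pair held by both stretches gave no value at that level.

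Same-numbered libraries did not deviate together (correlations -0.0144 to 0.00112), so the numbers share no source known here. With a replicate block 278, 234, 197 and 274 members were called in SX3 against ZS11, Slike against Zlike, Zlike against ZS11 and Slike against SX3, against 278, 235, 197 and 273 without it.

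Leaving out 1 library at a time gave 286 to 293, 225 to 229, 191 to 197 and 275 to 280 members called in the same order, with the lists of tested genes set anew each time. The sums of C01-stretch pairs depend on the scale: mean totals were 2139 and 2664 in ZS11 and SX3 with FPKM, against 2497 and 2528 with CPM. Most of the FPKM rise lay in the short RPL30A pair, and why its level differed was not tested. Counts on near-identical copies and the unknown source of the libraries limit all values.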
